A study of Homo sapiens with 6 samples.

Results

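The enzymes that make, activate or remove androgens inside a prostate tumour cell were followed as mRNA in 2 prostate cancer cell lines. They were given as a list of 10 genes, AKR1C1, AKR1C2, AKR1C3, HSD17B4, HSD3B1, SRD5A1, SRD5A3, UGT2B15, UGT2B17 and CYP17A1, and were found by Ensembl identifier among the 60658 identifiers that every library lists. All 10 were matched. The lines were C4-2B MDVR, an enzalutamide-resistant derivative of the LNCaP subline C4-2B, and CWR22Rv1, which is also castration-resistant. Enzalutamide is an antiandrogen drug. C4-2B MDVR was maintained in medium with 20 µM enzalutamide and CWR22Rv1 without the drug, so the line and the enzalutamide cannot be told apart in any difference between them. The study's methods do not say whether the drug was kept in the medium during the treatment below. Separate cultures of each line were kept for 48 h with DMSO as vehicle or with 1 of 2 inhibitors of the chaperone HSP70, apoptozole (APO) or VER155008 (VER), each at 10 µM. RNA was sequenced with 1 library for each of the 6 conditions. No difference below has a replicate check, and no p-value or error is given. The titles name C4-2B MDVR while another label of the same libraries names LNCaP-C4-2B cells and a parental line, and the titles were used.

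Testosterone and dihydrotestosterone are the active androgens, and a tumour deprived of testicular testosterone can make them from adrenal precursors. CYP17A1 forms the precursors from pregnenolone, HSD3B1 oxidises them to androstenedione, AKR1C3 reduces androstenedione to testosterone and a steroid 5α-reductase reduces testosterone to dihydrotestosterone. In the opposite direction, AKR1C1 and AKR1C2 reduce dihydrotestosterone to weak androgens, HSD17B4 oxidises active 17β-hydroxysteroids, and UGT2B15 and UGT2B17 couple androgens to glucuronic acid for export. UGT2B15 and UGT2B17 are repressed by androgens in prostate cells, and AKR1C genes are known targets of the oxidative stress factor NRF2.

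The values are FPKM, fragments scaled by transcript length and library size, so levels may be compared between genes. Wherever 3 values of a line follow each other, they are those of the DMSO, APO and VER libraries in that order. A gene entered a comparison where it was above 0.1 FPKM in at least 1 library of the line, or in 1 of the DMSO libraries when the lines were compared. A change is a difference of log2(FPKM + 0.1), and a gene was counted as different past 1.2-fold, the threshold of the study, with 2-fold as a stricter call. The added 0.1 understates the change of low genes. The relative depth of the libraries, read from their lowest values, ran from 1 in C4-2B MDVR with DMSO to 1.63 in C4-2B MDVR with APO. The mitochondrial chromosome held 14.8% to 25.7% of all FPKM in 5 libraries and 10.4% in CWR22Rv1 with APO. All 10 markers of luminal prostate cells were above 1 FPKM in every library, with summed levels of 881 to 1442 FPKM. The hepatocyte marker ALB, serum albumin, went against the label of CWR22Rv1, at 416, 132 and 307 FPKM, while it was below 0.5 FPKM in C4-2B MDVR. Of the 8 hepatocyte markers, 2 or 3 were listed at 0 in each library. The matrix gene LUM was at 23.9, 13.1 and 26.2 FPKM in the same line. Markers of basal cells summed to at most 1.57 FPKM and those of stroma and leukocytes to 9.19 to 32.2 FPKM. The part of ALB or LUM RNA in the results below was not tested. As the RNA is that of whole cultures, fewer cells with a transcript and less of it per cell cannot be told apart.

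The order of the enzymes differed between the lines mainly through the AKR1C genes. HSD17B4 was the highest of the 10 in every library and SRD5A3 was 2nd to 4th. With DMSO, 5 of the 10 enzymes were above 1 FPKM in C4-2B MDVR and 7 in CWR22Rv1, and 3 and 6 were above 10 FPKM. In C4-2B MDVR the order was HSD17B4, SRD5A3, SRD5A1, UGT2B15, UGT2B17, HSD3B1, then AKR1C1, AKR1C3 and AKR1C2, with those last 3 between 0.474 and 0.484 FPKM. In CWR22Rv1 it was HSD17B4, SRD5A3, AKR1C3, SRD5A1, AKR1C2, UGT2B15, AKR1C1 and UGT2B17, with HSD3B1 and CYP17A1 listed at 0. Without replicates the spread of a level is not known, so neighbours in these orders were not tested against each other.

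**Figure D1:**
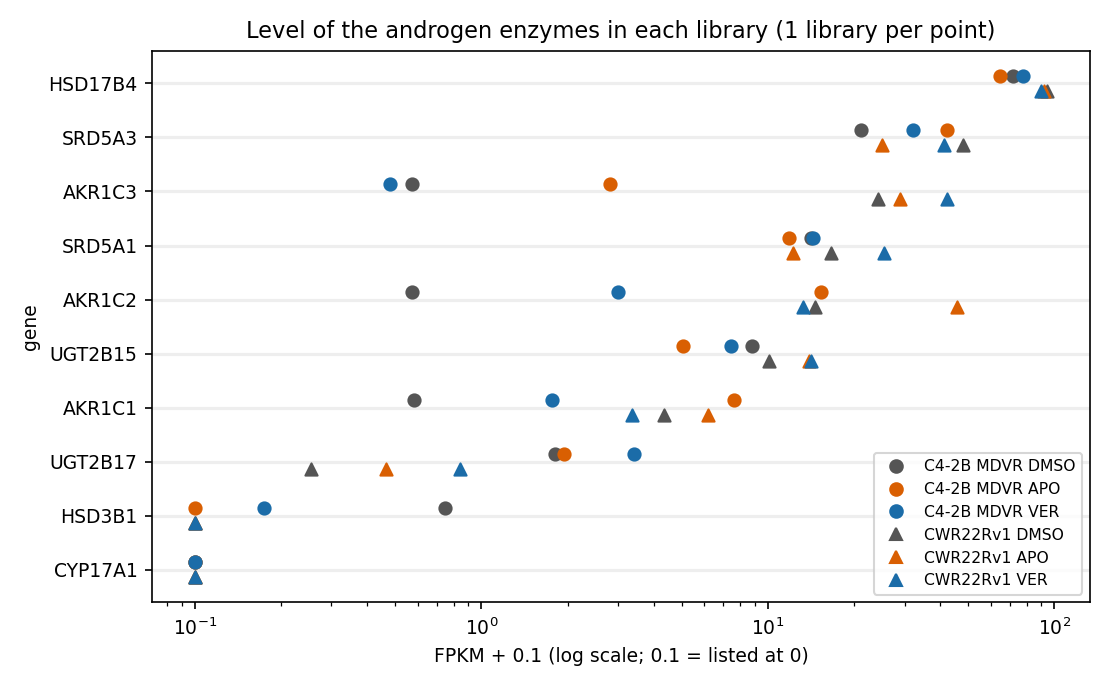
FPKM + 0.1 on a log scale for each of the 10 androgen enzymes (rows, ordered by mean), with 1 point per library; circles are C4-2B MDVR, triangles CWR22Rv1, and colours are DMSO, APO and VER. AKR1C2 spans 0.474 to 45.6 FPKM and AKR1C3 0.380 to 42.1 FPKM, while HSD17B4 stays between 64.3 and 94.2 FPKM.

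Among the members above 0 in both libraries compared, the AKR1C enzymes differed most with APO in C4-2B MDVR. Between the lines with DMSO AKR1C3 and AKR1C2 differed most, and AKR1C1 (log2 -2.90) and UGT2B17 (log2 2.83) followed. The order of AKR1C1 and UGT2B17 depends on the added constant, as with 0.01 FPKM they were at -3.11 and 3.38. AKR1C1 (GRCh38 chr10:4963253-4983283, plus strand), AKR1C2 (chr10:4987400-5018031, minus strand) and AKR1C3 (chr10:5035354-5107686, plus strand) lie side by side, and their coding sequences are close copies. AKR1C1 and AKR1C2 share 98.0% of their 969 coding bases and differ at 19. AKR1C3 shares 91.4% with AKR1C1 and 91.0% with AKR1C2. The reads were 150 bases long, and of the 820 coding windows of that length 38 (4.63%) hold no base that separates AKR1C1 from AKR1C2. The stretch of coding bases 13 to 162 separates them best, with 11 differences. It spans exons 1 and 2 of each principal transcript (GENCODE 29), at chr10:4963457-4965991 for AKR1C1, chr10:5001604-5003823 for AKR1C2 and chr10:5094457-5096487 for AKR1C3. Shown 5′ to 3′, the capitals mark where AKR1C1 or AKR1C3 differs from AKR1C2, the bases by which a read is given to 1 copy.
AKR1C1: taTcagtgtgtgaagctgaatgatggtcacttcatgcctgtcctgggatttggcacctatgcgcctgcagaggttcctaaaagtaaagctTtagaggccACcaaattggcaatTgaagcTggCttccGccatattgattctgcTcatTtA
AKR1C2: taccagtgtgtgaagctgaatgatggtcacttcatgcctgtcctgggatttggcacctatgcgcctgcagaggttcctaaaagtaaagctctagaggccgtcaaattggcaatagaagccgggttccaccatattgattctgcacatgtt
AKR1C3: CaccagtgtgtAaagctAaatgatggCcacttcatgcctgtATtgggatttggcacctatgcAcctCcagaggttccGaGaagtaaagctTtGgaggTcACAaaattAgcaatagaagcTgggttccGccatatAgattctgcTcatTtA
AKR1C3 differs from AKR1C2 at 23 of these 150 bases. Over whole transcripts, exact 150-base windows also found in another gene made up 11.3% of AKR1C1, 21.2% of AKR1C2 and 1.33% of AKR1C3, so the split between AKR1C1 and AKR1C2 is uncertain and their sum is given beside it.

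AKR1C2, the enzyme that reduces dihydrotestosterone to 3α-androstanediol, was at 0.474, 15.2 and 2.89 FPKM in C4-2B MDVR and at 14.5, 45.6 and 13.1 FPKM in CWR22Rv1. The APO library was the highest of each line, and with DMSO alone C4-2B MDVR was far below CWR22Rv1. In C4-2B MDVR it was 26.7-fold higher with APO (log2 4.74) and 5.21-fold higher with VER (log2 2.38). As the DMSO level was low, these sizes depend on the added constant, and with 1 in place of 0.1 FPKM they were 3.46 and 1.40 on the log2 scale. In CWR22Rv1 it was 3.12-fold higher with APO (log2 1.64) and within 1.2-fold with VER (log2 -0.15).

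AKR1C1, whose product is mainly the 3β-diol and which also inactivates progesterone, was at 0.484, 7.52 and 1.67 FPKM in C4-2B MDVR and at 4.25, 6.10 and 3.25 FPKM in CWR22Rv1. It was 13.0-fold higher with APO in C4-2B MDVR (log2 3.70) and 3.03-fold higher with VER (log2 1.60), or 2.52 and 0.85 on the log2 scale with 1 FPKM added. In CWR22Rv1 it was 1.42-fold higher with APO (log2 0.51) and 1.30-fold lower with VER (log2 -0.38). The sum of AKR1C1 and AKR1C2 was 0.958, 22.8 and 4.56 FPKM in C4-2B MDVR and 18.8, 51.7 and 16.4 FPKM in CWR22Rv1. On that sum the log2 changes with APO were 4.43 and 1.45, and those with VER were 2.14 and -0.20. The lower AKR1C1 value with VER in CWR22Rv1 was thus not past 1.2-fold once the copies were summed. AKR1C2 was the larger part of the sum in CWR22Rv1, so the sum cannot check AKR1C1 alone.

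AKR1C3, which forms testosterone and is the family member on the synthesis side, was at 0.474, 2.71 and 0.380 FPKM in C4-2B MDVR and at 24.2, 28.9 and 42.1 FPKM in CWR22Rv1. All values of CWR22Rv1 were above all values of C4-2B MDVR. In C4-2B MDVR it was 4.90-fold higher with APO (log2 2.29, or 1.33 with 1 FPKM added) and just inside 1.2-fold with VER (log2 -0.26). In CWR22Rv1 the larger change was with VER, 1.74-fold higher (log2 0.80), and the APO library was just inside 1.2-fold (log2 0.26). The make-up of the family moved with these values. AKR1C3 held 33.1%, 10.6% and 7.70% of the summed AKR1C1, AKR1C2 and AKR1C3 FPKM in C4-2B MDVR. In CWR22Rv1 it held 56.3%, 35.9% and 72.0%, so its share was lowest with APO there and lowest with VER in C4-2B MDVR.

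**Figure D2:**
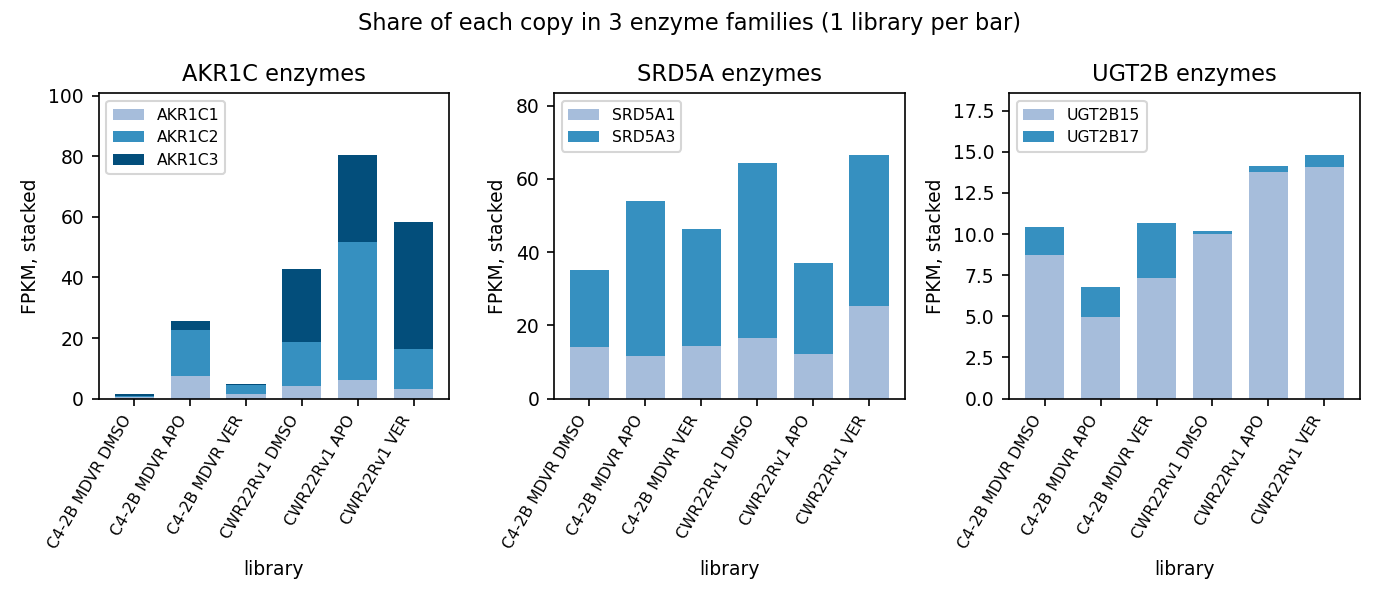
Stacked FPKM of the AKR1C, SRD5A and UGT2B enzymes in each of the 6 libraries (1 library per bar, axes from 0). The AKR1C total is 1.43 FPKM in C4-2B MDVR with DMSO and 80.6 FPKM in CWR22Rv1 with APO, the UGT2B total lies between 6.79 and 14.8 FPKM, and UGT2B17 is a thin layer in CWR22Rv1.

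The members of the early steps of androgen synthesis, CYP17A1 and HSD3B1, were below 1 FPKM in every library. CYP17A1 (chr10:102830531-102837533, minus strand), the hydroxylase and lyase that opens the route from pregnenolone, was listed at 0 in all 6 libraries and entered no comparison. Its gene is overlapped on the opposite strand by WBP1L, which was at 10.9 to 25.4 FPKM. HSD3B1 (chr1:119507198-119515054, plus strand) was at 0.646 FPKM in C4-2B MDVR with DMSO, listed at 0 with APO and at 0.0751 FPKM with VER. It was listed at 0 in all 3 libraries of CWR22Rv1, so no fold is given there or for APO. Its paralog HSD3B2, with 93.5% of the coding bases in common, was listed at 0 throughout. The 6 markers of adrenocortical and gonadal cells summed to at most 0.642 FPKM in any library.

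HSD17B4 (chr5:119452443-119637199, plus strand), a peroxisomal enzyme that also acts in fatty acid oxidation, was at 71.7, 64.3 and 77.7 FPKM in C4-2B MDVR and at 94.2, 91.7 and 89.4 FPKM in CWR22Rv1. Every value of CWR22Rv1 was above every value of C4-2B MDVR. With either inhibitor it was within 1.2-fold of DMSO in both lines, with log2 changes of -0.16 and 0.12 in C4-2B MDVR and of -0.04 and -0.08 in CWR22Rv1. With the libraries rescaled to the same sum, the APO value in C4-2B MDVR was past 1.2-fold lower (log2 -0.31).

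The steroid 5α-reductases changed in different ways. SRD5A1 (chr5:6633343-6674386, plus strand) reduces testosterone and androstenedione, whereas SRD5A3 (chr4:55346109-55373096, plus strand) also serves protein glycosylation as a polyprenol reductase. They share 42.5% of aligned coding bases, and neither has a 150-base window found in another gene. SRD5A1 was at 14.1, 11.7 and 14.3 FPKM in C4-2B MDVR and at 16.5, 12.1 and 25.4 FPKM in CWR22Rv1. With DMSO or APO the lines had similar SRD5A1 levels, and CWR22Rv1 with VER stood above the other 5 libraries. In CWR22Rv1 it was 1.36-fold lower with APO (log2 -0.45) and 1.53-fold higher with VER (log2 0.62), and in C4-2B MDVR it was within 1.2-fold with both (log2 -0.26 and 0.02). The APO values depend on the scaling, and rescaled to the same sum they were -0.41 in C4-2B MDVR, past 1.2-fold, and -0.33 in CWR22Rv1. SRD5A3 was at 21.1, 42.2 and 31.9 FPKM in C4-2B MDVR and at 47.7, 24.8 and 41.2 FPKM in CWR22Rv1. APO thus gave the highest SRD5A3 value of one line and the lowest of the other. The log2 change with APO was 0.998 in C4-2B MDVR, just under 2-fold, and -0.94 in CWR22Rv1, and with VER it was 0.59 and -0.21. As the share of mitochondrial RNA was lowest in CWR22Rv1 with APO, the values there were also computed relative to the sum of all other genes, which gave -1.09 for SRD5A3, -0.60 for SRD5A1 and 1.49 for AKR1C2. SRD5A2, the form of the normal prostate, reached no more than 0.437 FPKM in any library.

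Of the glucuronosyltransferases, UGT2B15 was present in both lines and UGT2B17 mainly in C4-2B MDVR. UGT2B15 (chr4:68646630-68670628) and UGT2B17 (chr4:68537184-68568527), both on the minus strand, share 96.5% of 1590 coding bases and differ at 55. Coding bases 253 to 402, in exon 1, separate them best, with 17 differences in 150 bases, at chr4:68670217-68670366 for UGT2B15 and chr4:68568083-68568232 for UGT2B17. They are shown 5′ to 3′ because the contrast between the lines rests on telling these copies apart, with capitals where UGT2B17 differs from UGT2B15.
UGT2B15: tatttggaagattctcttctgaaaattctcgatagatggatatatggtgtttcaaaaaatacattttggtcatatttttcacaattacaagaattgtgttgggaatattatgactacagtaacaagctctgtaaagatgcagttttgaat
UGT2B17: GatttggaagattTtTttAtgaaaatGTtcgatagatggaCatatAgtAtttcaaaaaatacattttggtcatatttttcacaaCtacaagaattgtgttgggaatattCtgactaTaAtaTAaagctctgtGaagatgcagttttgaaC
Of the 1441 coding windows of 150 bases, 94 (6.52%) hold no difference between them, and 4.88% of the windows of either whole transcript are also found in the other gene.

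UGT2B15 was at 8.73, 4.94 and 7.34 FPKM in C4-2B MDVR and at 10.03, 13.8 and 14.1 FPKM in CWR22Rv1. The APO library was the lowest of C4-2B MDVR, whereas both inhibitor libraries were above DMSO in CWR22Rv1. The log2 change in C4-2B MDVR was -0.81 for APO and -0.25 for VER, and in CWR22Rv1 it was 0.45 and 0.49. UGT2B17, which acts on testosterone and dihydrotestosterone, was at 1.71, 1.85 and 3.31 FPKM in C4-2B MDVR and at 0.155, 0.366 and 0.744 FPKM in CWR22Rv1. VER gave the highest UGT2B17 value of each line, and all values of C4-2B MDVR were above those of CWR22Rv1. In C4-2B MDVR it was 1.89-fold higher with VER (log2 0.92) and within 1.2-fold with APO (log2 0.11). In CWR22Rv1, where the levels were below 1 FPKM, it was 1.83-fold higher with APO (log2 0.87) and 3.31-fold higher with VER (log2 1.73). With 1 FPKM added these were 0.24, within 1.2-fold, and 0.59 on the log2 scale. UGT2B17 held 16.4%, 27.2% and 31.1% of the summed UGT2B15 and UGT2B17 FPKM in C4-2B MDVR and 1.52%, 2.59% and 5.02% in CWR22Rv1. The sum changed in C4-2B MDVR by -0.61 for APO and by 0.03 for VER, and by 0.47 and 0.54 in CWR22Rv1, all on the log2 scale. The higher UGT2B17 value with VER in C4-2B MDVR was not seen in the sum. As UGT2B17 was the smaller part of the sum in every library, the sum follows mainly UGT2B15 and cannot check UGT2B17. KLK3, the androgen-induced gene of prostate-specific antigen, was at 77.8, 8.84 and 24.4 FPKM in C4-2B MDVR and at 30.2, 2.33 and 22.7 FPKM in CWR22Rv1. Whether the change of KLK3 bears on the values of the enzymes was not tested.

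**Figure D3:**
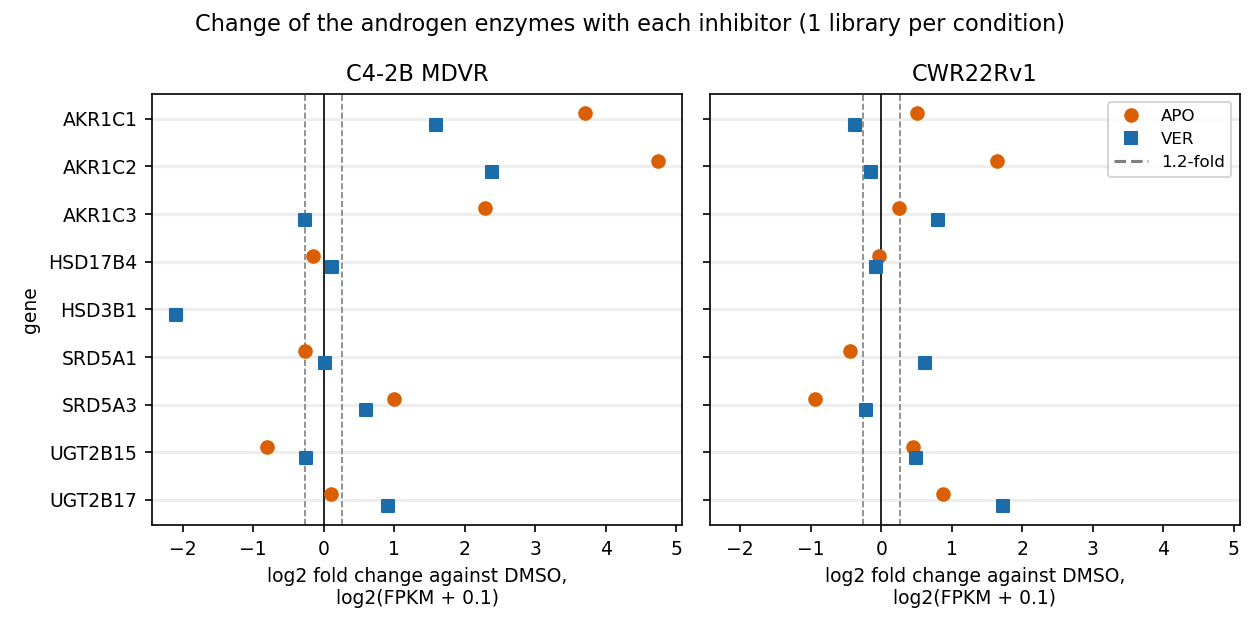
Log2 fold change against DMSO, from log2(FPKM + 0.1), for the androgen enzymes in C4-2B MDVR (left) and CWR22Rv1 (right), with APO as circles, VER as squares, and dashed lines at 1.2-fold; each point compares 1 library with 1 library. CYP17A1 and the comparisons with a library at 0 are not drawn. In C4-2B MDVR the points of AKR1C2 lie at 4.74 and 2.38, and SRD5A3 with APO lies at 0.998 on the left and -0.94 on the right.

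Counted together, the enzymes differed from DMSO about as often as all genes did. With APO in C4-2B MDVR 6 of the 9 members compared were past 1.2-fold, 4 higher and 2 lower, where 73.1% of the 20122 genes compared were past it, 37.7% higher and 35.4% lower. At 2-fold there were 4 of 9, the 3 AKR1C genes higher and HSD3B1 lower, against 28.7% of all genes, 15.4% higher and 13.3% lower. HSD3B1 entered the comparisons of this line only through its DMSO library, so its lower calls followed from the filter, and without it 5 of 8 members were past 1.2-fold with APO and 4 of 8 with VER. Rescaled to the same sum, 8 of 9 were past 1.2-fold with APO, 4 higher and 4 lower, and all genes split into 32.1% higher and 42.3% lower. With VER in that line 5 of 9 were past 1.2-fold (4 higher, 1 lower), against 70.5% of all genes (35.6% higher, 34.9% lower). Past 2-fold there were 3 of 9, AKR1C1 and AKR1C2 higher and HSD3B1 lower, against 27.8%. In CWR22Rv1, 6 of 8 were past 1.2-fold with APO (4 higher, 2 lower), against 74.8% of 21608 genes (35.6% higher, 39.2% lower), and AKR1C2 alone was past 2-fold, against 30.6%. That split of all genes was 40.3% higher and 35.5% lower at the same sum, and 30.3% and 45.3% when mitochondrial genes were left out of the sum. With VER it was 5 of 8 (4 higher, 1 lower), against 64.4% of all genes (32.1% higher, 32.3% lower), and UGT2B17 alone past 2-fold, against 19.8%. The median log2 change of the members was 0.11 for APO and 0.12 for VER in C4-2B MDVR, and 0.36 and 0.20 in CWR22Rv1, where the median of all genes compared lay between -0.01 and 0. The comparisons of a line share its DMSO library, so each is given by its own values.

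The inhibitors differ in structure and were used at the same dose and time, and 1 comparison was made between them in each line. In C4-2B MDVR all 9 members compared were counted past 1.2-fold between VER and APO, 5 higher and 4 lower with VER, where 61% of all genes were past it, 28.5% higher and 32.5% lower. Among the 5 was HSD3B1, at 0.0751 FPKM against 0, below the filter in both libraries, and without it there were 8 of 8, 4 in each direction. With the libraries rescaled to the same sum that split became 37.4% higher and 24.9% lower, and the calls of 8 of the members stayed, SRD5A3 being within 1.2-fold (log2 -0.26). The 3 AKR1C genes were past 2-fold (3 of 9, against 19.1% of all genes, 8.68% higher and 10.5% lower), each lower with VER, by 4.30-fold for AKR1C1, 5.13-fold for AKR1C2 and 5.86-fold for AKR1C3. In CWR22Rv1 6 of 8 were past 1.2-fold, 4 higher and 2 lower, against 71.8% of all genes, 37.3% higher and 34.5% lower, which became 31.3% higher and 43.1% lower at the same sum. There AKR1C2 was 3.45-fold lower with VER than with APO and SRD5A1 2.09-fold higher, the 2 members of 8 past 2-fold, against 26.2%. At the same sum SRD5A1 was inside 2-fold (log2 0.88) and AKR1C1 past it (log2 -1.07). AKR1C1 was also lower with VER in CWR22Rv1 (log2 -0.89), whereas AKR1C3 was higher (log2 0.54). HSD17B4, UGT2B15 and SRD5A3 differed between the inhibitors by -0.04, 0.03 and 0.73 in CWR22Rv1 and by 0.27, 0.56 and -0.40 in C4-2B MDVR. With 1 library each, no interval can be set on these differences.

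Between the lines with DMSO, the AKR1C genes were lower and UGT2B17 was higher in C4-2B MDVR. Of the 9 members compared, 7 were past 1.2-fold, 2 higher and 5 lower in C4-2B MDVR, where 82.4% of 20903 genes were past it, 39.2% higher and 43.2% lower. At 2-fold there were 6 of 9, with 4 lower and 2 higher, UGT2B17 and HSD3B1. Of all genes 46.6% were past it, 27.2% lower and 19.4% higher. HSD3B1 was counted as higher through its C4-2B MDVR library alone, and without it 6 of 8 members were past 1.2-fold, 1 higher and 5 lower. The levels were 0.474 against 24.2 FPKM for AKR1C3, which was 42.3-fold lower (log2 -5.40), 0.474 against 14.5 FPKM for AKR1C2, 25.5-fold lower (log2 -4.67), and 0.484 against 4.25 FPKM for AKR1C1, 7.45-fold lower (log2 -2.90). With 1 FPKM added these log2 differences were -4.09, -3.40 and -1.82. Each of these log2 differences was among the lowest 7.64% of all genes compared, and that of AKR1C3 among the lowest 1.36%. The sum of AKR1C1 and AKR1C2 was 17.8-fold lower (log2 -4.16). SRD5A3 was 2.26-fold lower (log2 -1.17) and HSD17B4 1.31-fold lower (log2 -0.39), while SRD5A1 (log2 -0.23) and UGT2B15 (log2 -0.20) were within 1.2-fold. Rescaled to a median ratio of 1, SRD5A1 (log2 -0.35) and UGT2B15 (log2 -0.31) were past it, which made 9 of 9 members, 7 of them lower. UGT2B17 was 7.10-fold higher (log2 2.83, or 1.23 with 1 FPKM added), at 1.71 against 0.155 FPKM. The sum of UGT2B15 and UGT2B17 was 10.4 against 10.2 FPKM, a log2 difference of 0.04. UGT2B17 held 16.4% and 1.52% of these sums, so they follow mainly UGT2B15 and cannot check the UGT2B17 difference. HSD3B1 was at 0.646 FPKM in C4-2B MDVR and listed at 0 in CWR22Rv1. The median log2 difference of the members was -0.39 and that of all genes compared -0.05.

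**Figure D4:**
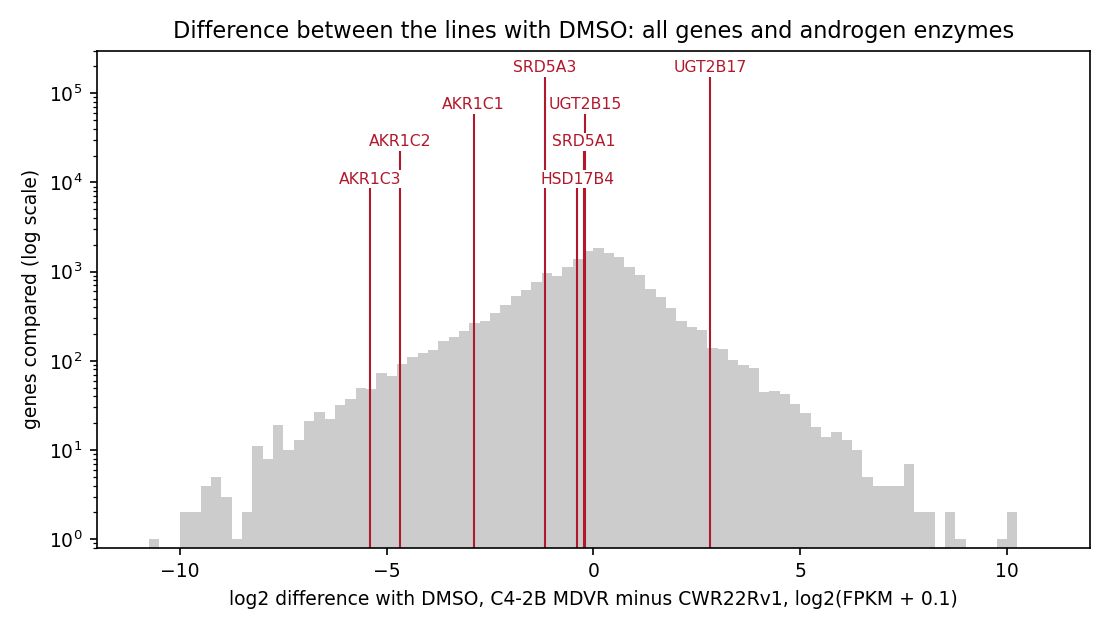
Histogram of the log2 difference between C4-2B MDVR and CWR22Rv1 with DMSO, from log2(FPKM + 0.1), for all 20903 genes compared (gene counts on a log axis), with red lines at the androgen enzymes that were above 0 in both libraries. AKR1C3 (-5.40), AKR1C2 (-4.67) and AKR1C1 (-2.90) lie in the left tail and UGT2B17 (2.83) in the right, while SRD5A1, UGT2B15 and HSD17B4 lie near the middle.

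The remaining genes of androgen synthesis, conversion, sulfation, glucuronidation, oxidation and uptake were described from a list of 67, of which 55 were above 0.1 FPKM in at least 1 library and 6 were listed at 0 in all. With APO in C4-2B MDVR 19 of the 49 compared were past 1.2-fold higher and 20 lower, and with VER 23 and 16, where all genes had 37.7% higher and 35.4% lower with APO and 35.6% and 34.9% with VER. In CWR22Rv1 the counts of 49 were 19 higher and 16 lower with APO and 21 and 14 with VER, where all genes had 35.6% and 39.2%, and 32.1% and 32.3%. Between the lines with DMSO 21 of 47 were higher and 24 lower in C4-2B MDVR, against 39.2% and 43.2% of all genes. CYP39A1, an oxysterol hydroxylase, was past 2-fold higher with both inhibitors in both lines, at 0.488, 3.26 and 3.20 FPKM in C4-2B MDVR and 2.11, 10.7 and 6.58 FPKM in CWR22Rv1. HSD17B3, the testicular enzyme that makes testosterone from androstenedione as AKR1C3 does, had no FPKM above 0 with vehicle in C4-2B MDVR, where it is listed at 0, and was at 1.15 FPKM with APO and 1.203 FPKM with VER. In CWR22Rv1 HSD17B3 was at 0.303, 1.18 and 0.513 FPKM. HSD11B2, which inactivates cortisol, was lower with both in CWR22Rv1, at 26.5, 9.90 and 12.9 FPKM, but not in C4-2B MDVR, at 28.6, 27.2 and 34.6 FPKM. Between the lines the glucuronosyltransferases UGT2B11 (17.4 against 0.559 FPKM) and UGT2B28 (2.20 against 0.104 FPKM) were higher in C4-2B MDVR, as UGT2B17 was. They share 97.0% of their coding bases, so the split between them is uncertain too. Their group in the list had 9 genes, of which 6 were compared. Of those, 2 were higher and 4 lower past 1.2-fold in C4-2B MDVR. The 17β-hydroxysteroid dehydrogenase HSD17B11 (10.5 against 57.4 FPKM) and the retinol dehydrogenase RDH5 (1.51 against 18.8 FPKM) were lower there, as were STARD4, a sterol carrier (0.438 against 10.6 FPKM), and PAPSS2, which supplies sulfate for steroid sulfation (0.109 against 2.76 FPKM). SULT2B1, a hydroxysteroid sulfotransferase (9.79 against 1.16 FPKM), CYP2J2 (7.88 against 1.14 FPKM) and CYP7B1 (1.90 against 0.162 FPKM), both steroid- or lipid-oxidising cytochromes P450, were higher in C4-2B MDVR.

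A list of 11 NRF2 target genes was set beside the AKR1C genes. With APO 11 of 11 were past 1.2-fold higher in C4-2B MDVR (median log2 change 0.87) and 9 of 11 in CWR22Rv1, with 2 lower (median 1.07), where 37.7% and 35.6% of all genes were past 1.2-fold higher. With VER 9 of 11 were higher in C4-2B MDVR (median 0.48), and in CWR22Rv1 4 were higher and 2 lower (median -0.09), where 35.6% and 32.1% of all genes were higher. In the same order the log2 changes of AKR1C2 were 4.74, 1.64, 2.38 and -0.15, those of AKR1C1 were 3.70, 0.51, 1.60 and -0.38, and those of AKR1C3 were 2.29, 0.26, -0.26 and 0.80. Between the lines with DMSO 9 of the 11 were higher in C4-2B MDVR, where the AKR1C genes were lower, and 39.2% of all genes were higher. The part of NRF2 in the values of the AKR1C genes was not tested. In the 250 bases before the RefSeq start (GRCh38.p14), the letters TGACNNNGC of the antioxidant response element, searched on both strands, were found in 1 of the 9 members with an entry, SRD5A3, and in none of the AKR1C genes, and 10.9% of 35116 promoter windows hold them. The windows of AKR1C1 and AKR1C2 overlap the first exon of the GENCODE transcript used above, so they are not wholly upstream of it. Of the AKR1C3 windows searched, at chr10:5048531-5048780 and chr10:5094164-5094413, the latter lies within the first exon of its transcript, which starts at 5093793. Sites further than 250 bases before a start were not searched, so the absence of a match does not bear on them. For SRD5A3 the window, chr4:55345992-55346241, runs past the start of the gene at 55346109, and the match lies after that start.

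Over the 6 libraries, the pattern of each member with a mean of at least 1 FPKM was compared with 14240 genes by the root mean square difference of centred log2 values. Among the members HSD17B4 and SRD5A1 were the most alike (0.32), AKR1C1 and AKR1C2 differed by 0.93 and AKR1C3 and UGT2B17 were the least alike (3.83). HSD17B4 was most like RIPK1, ABHD14B and ZNF687, SRD5A1 like BMPR1A, HYPK and EMB, and SRD5A3 like NHLRC3, CCDC167 and TMEM187. The closest genes were THSD4, ZNF554 and VPS37D to AKR1C1 and FGF13, CREB5 and HOPX to AKR1C2, and ECHDC1 and RIMS2 were among the 3 closest to AKR1C3. UGT2B15 was most like TRIM13, C17orf58 and KCNN2, and UGT2B17 like GASAL1, AC022916.1 and SERINC5. The nearest gene lay 0.03 from HSD17B4, 0.10 from SRD5A1, 0.11 from UGT2B15, 0.14 from SRD5A3, 0.22 from UGT2B17, 0.36 from AKR1C1 and 0.46 from AKR1C2. These likenesses rest on 6 libraries that share their controls and describe the patterns.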

How the data were processed

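RNA of each culture was extracted after 48 h, and, per the labels, polyadenylated RNA was made into libraries with a stranded kit and read as pairs of 150 bases, whereas the study's methods name another kit. The authors aligned the reads with HISAT to GRCh38, ran Cufflinks and used Cuffnorm to normalize across libraries; what they deposited is 1 FPKM per gene for each library. Tool versions and the annotation release are not given in the sources used here. FPKM carries no read totals, so depth is known only as a ratio between libraries, read from the smallest values, and no interval or floor is given. A gene at 0 is called listed at 0, and no fold is given against it.

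Groups were taken from the sample titles. Identifiers were matched to GENCODE 29 (GRCh38), which held 57047 of 60658. Differences of log2(FPKM + 0.1) were computed for all genes above 0.1 FPKM in at least 1 library of the comparison, and counted past 1.2-fold and 2-fold. A comparison with a library at 0 counts by the same scale. With 1 library per condition no test was made, and p-values were not computed. Coding identity was counted on principal transcripts, and 150-base windows were compared exactly with all GENCODE transcripts. Promoter windows came from RefSeq (GRCh38.p14), with 5 motifs searched, of which only the antioxidant response element is reported.

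The members and the gene lists were chosen with earlier results of these data known. The genes named are all 10 members, KLK3, markers that go against the label, pathway genes past 2-fold the same way with both inhibitors in a line or past 4-fold between the lines with at least 1 FPKM in a library compared, and for each member with a mean of at least 1 FPKM the 3 genes of most similar pattern; SRD5A2, HSD3B2 and WBP1L were named beside a member after their values were seen. Some genes covered by this rule are not reported here. Alternatives were pseudocounts of 0.01 and 1, 3 rescalings of the libraries, near-identical copies summed, other filters and folds, and protein-coding genes only. The calculation was tested on simulated data. Python 3.11.15, pandas 2.3.3, numpy 2.4.6 and matplotlib 3.10.9 were used.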

Additional observations from a re-analysis of the deposited data

Results flagged for a closer look

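In 3 cases an inhibitor moved a member past 1.2-fold in opposite directions in the lines, each with 1 library per condition, and the difference between the lines was not tested. With APO, SRD5A3 changed by 0.998 on the log2 scale in C4-2B MDVR and by -0.94 in CWR22Rv1. UGT2B15 changed by -0.81 with APO in C4-2B MDVR and by 0.45 in CWR22Rv1. With VER, AKR1C1 changed by 1.60 in C4-2B MDVR and by -0.38 in CWR22Rv1, and the CWR22Rv1 value was -0.20 once AKR1C1 and AKR1C2 were summed.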

How the results depend on the processing

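No paired analysis was possible because each condition has 1 library and the labels give no replicate numbers. Leaving out a library removes its comparison, so that was not run. Of 57 changes of single members with a fold, 313 values were recomputed under other pseudocounts, rescalings and summed copies, and 290 stayed on their side of 1.2-fold, 15 (of HSD17B4, SRD5A1, SRD5A3, AKR1C3 and UGT2B15) moved past it and 7 fell within it. UGT2B17 with APO in C4-2B MDVR was 0.11, and its sum with UGT2B15 was -0.61, past 1.2-fold the other way. UGT2B17 held 16.4% of that sum with DMSO and 27.2% with APO. The summed value thus follows mainly UGT2B15 (-0.81) and cannot check UGT2B17. Changes within 1.2-fold could turn sign, as UGT2B15 with VER in C4-2B MDVR did (-0.25, and 0.03 summed). UGT2B17 with APO in CWR22Rv1 fell to 0.24 with a pseudocount of 1. The rescaling to the same sum moved the median of genes above 1 FPKM to -0.12 with APO in C4-2B MDVR and 0.10 in CWR22Rv1, and without mitochondrial genes to -0.14 and -0.16; between VER and APO the same sum gave 0.11 and -0.20. Past 1.5-fold, 3 members differed with APO and 3 with VER in CWR22Rv1, and 5 between VER and APO in C4-2B MDVR. Among those 5 was HSD3B1, at 0.0751 against 0 FPKM, below the filter in both libraries. Past 2-fold, 1 member each differed with APO and VER in CWR22Rv1, 3 with VER in C4-2B MDVR, 3 between VER and APO in C4-2B MDVR and 2 in CWR22Rv1. The 3 with VER in C4-2B MDVR include HSD3B1, which entered only through its DMSO library. Of all genes compared (20122 in C4-2B MDVR, 21608 in CWR22Rv1 and 20903 between the lines), 9719 (APO) and 9279 (VER) in C4-2B MDVR and 11069 (APO) and 7906 (VER) in CWR22Rv1 were past 1.5-fold, as were 6660 and 9978 between VER and APO in the same lines. Past 2-fold there were 5777 (APO) and 5584 (VER) in C4-2B MDVR, 6603 (APO) and 4268 (VER) in CWR22Rv1, 3850 and 5654 between VER and APO, and 9737 between the lines. With VER in CWR22Rv1 and between VER and APO in C4-2B MDVR, the counts past 1.2-fold were 9170 and 7859 for genes above 1 FPKM in a library, and 9136 and 8071 for protein-coding genes, from fewer genes compared. The other counts stayed within 1.5 times of the values given.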

Other observations

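Some further genes from the list of 67 stood out and were chosen after their values were seen. FDXR, the reductase that feeds electrons to mitochondrial cytochromes P450, was at 18.5, 29.3 and 94.8 FPKM in C4-2B MDVR (DMSO, APO, VER) and at 11.6, 18.7 and 40.9 FPKM in CWR22Rv1, so that VER gave the highest value of each line. UGDH, which makes the glucuronic acid donor used by UGT2B15 and UGT2B17, was at 32.8, 45.7 and 37.9 FPKM in C4-2B MDVR and at 63.4, 176.8 and 62.8 FPKM in CWR22Rv1, highest with APO in each. CYB5A, the cofactor of the CYP17A1 lyase step, was at 156.3, 105.7 and 73.8 FPKM in C4-2B MDVR and at 45.3, 20.2 and 27.9 FPKM in CWR22Rv1, although CYP17A1 itself was listed at 0 in all 6 libraries. HSD17B14, a further 17β-hydroxysteroid dehydrogenase, was at 2.25, 7.77 and 4.36 FPKM in C4-2B MDVR and at 0.926, 4.48 and 1.37 FPKM in CWR22Rv1.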
